A study of Homo sapiens with 12 samples.

Results

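The 10 regulators and products of fat cell formation followed here in SW872 cells, an established human liposarcoma line, were CEBPB, CEBPD, CEBPA, PPARG, EBF1, EBF2, EBF3, PRDM16, LPL and FABP4. They were taken by symbol from the table of counts, as 10 of its 58735 genes. Of these, 9 passed the filter on low counts (an average of 5 counts or more per library) among 18415 genes tested, and FABP4 did not. PRDM16 passed only through 1 group, with a mean of 12.2 counts over all libraries and 4.4 without YT shNT. It is therefore described without a test, and the counts and medians of tests below are over the other 8.

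All cells stably expressed a fusion oncoprotein, either TAZ-CAMTA1 (TC), which joins the coactivator TAZ to the transcription factor CAMTA1, or YAP-TFE3 (YT), which joins YAP to the transcription factor TFE3. Into each line one of 3 kinds of hairpin had been placed, against no human gene (shNT), against YEATS2 or against ZZZ3. The labels do not say which hairpin against YEATS2 or ZZZ3 a library carries, or whether the libraries of a group share it. YEATS2 and ZZZ3 are subunits of the ATAC complex, a histone acetyltransferase that serves as a coactivator. The 6 groups of 2 libraries are therefore TC shNT, TC shYEATS2, TC shZZZ3, YT shNT, YT shYEATS2 and YT shZZZ3. Fusions were introduced by retrovirus and lines were selected with drug as pools, so the control groups carry the fusion too, and no fusion-free cells are compared here. The 2 libraries of a group are described as biological replicates, and p-values measure only the spread between these libraries.

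Fat cells form from fibroblast-like progenitors through a relay of transcription factors. CEBPB and CEBPD come on early and switch on PPARG and CEBPA, which hold each other's expression up and activate the genes of the mature cell, among them the fatty acid carrier FABP4 and the lipase LPL. The early B cell factors EBF1, EBF2 and EBF3 bind many of the same enhancers, EBF2 and PRDM16 being best known from brown fat, and TAZ is a known corepressor of PPARG.

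Total counts lay between 17451893 and 29294805 per library. YEATS2 transcripts fell in both knock-downs, by 1.54 on the log2 scale in TC (SE 0.17, adjusted p = 0.0138) and by 1.68 in YT (SE 0.17, adjusted p = 1.04e-04; edgeR's quasi-likelihood test with Benjamini-Hochberg adjustment, as for all adjusted p-values here). ZZZ3 stood at 25.6 and 60.4 CPM (read counts put on one library total with TMM factors) in TC shNT and at 21.9 and 22.7 in TC shZZZ3, a difference that did not pass the test (log2 difference -0.94, SE 0.42, adjusted p = 0.450). In YT it fell from 71.2 and 49.1 CPM to 12.6 and 29.6 (log2 fold change -1.51, SE 0.42, adjusted p = 0.0453). ZZZ3 was also at 31.4 and 30.7 CPM in YT shYEATS2, a value that did not pass the test against YT shNT (adjusted p = 0.130).

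The libraries of 3 groups were wider apart than those of the rest. Among genes averaging 50 counts or more, 9.02% differed by 2-fold or more between the replicates of TC shNT, 5.26% between those of TC shYEATS2 and 5.07% between those of YT shZZZ3, beside 0.211% to 0.777% in the other groups. In TC shNT and YT shZZZ3 the difference followed GC content. Genes above 60% GC were higher in replicate 1 than genes under 42% GC by 1.40 log2 units in TC shNT and by 1.15 in YT shZZZ3, against -0.28 to 0.36 in the other 4 groups. CEBPA, CEBPB and CEBPD have transcripts of about 66% GC (65.9%, 66.2% and 66.0%), PPARG of 39.7%, EBF1 of 41.1%, LPL of 43.6%, EBF2 of 43.7%, EBF3 of 47.1% and PRDM16 of 56.7%. With a correction for GC content 9 differences gained a call. Values after that correction are given beside most of these results but not all.

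**Figure D1:**
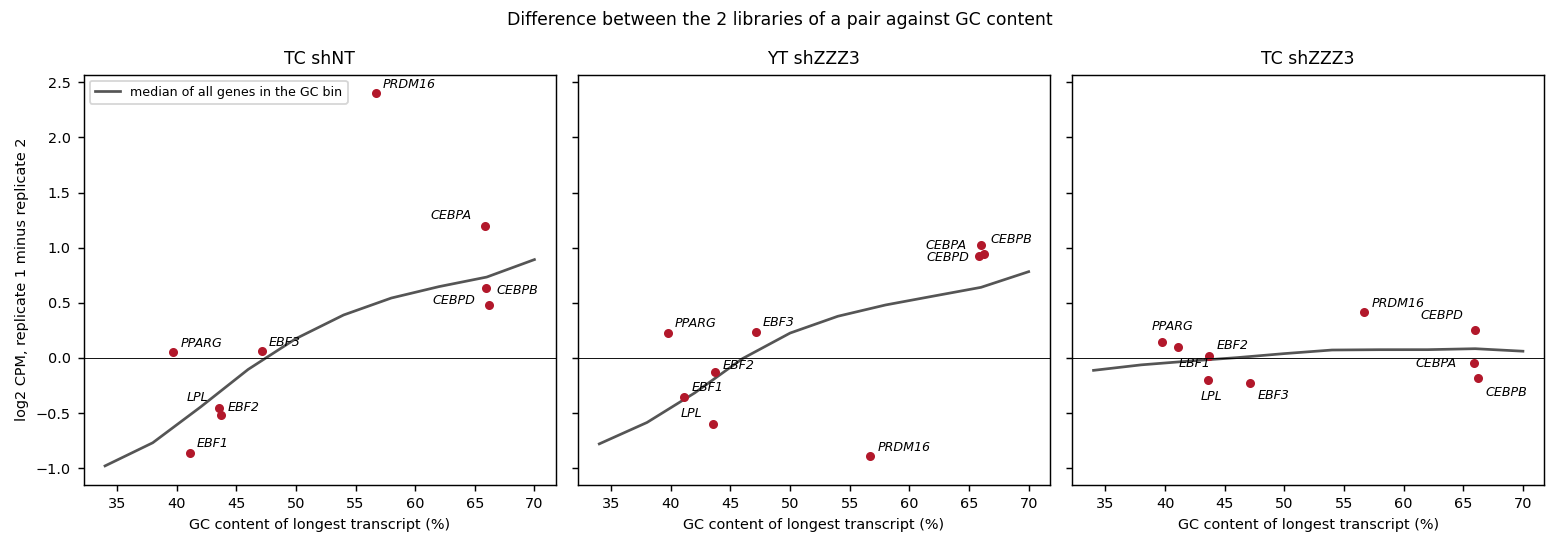
Difference in log2 CPM between replicate 1 and replicate 2 of TC shNT, YT shZZZ3 and TC shZZZ3 (vertical axis) against the GC content of the longest transcript in percent (horizontal axis). The line is the median of all genes averaging 50 counts or more in bins of 4 percentage points, and each point is 1 of the 9 tested regulators; CEBPA, CEBPB and CEBPD lie on the GC-rich, positive side in the first 2 panels, and the points of PRDM16 rest on 10 or fewer counts.

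The cells carried markers of progenitors and few of mature fat. All 5 preadipocyte or fibroblast markers of the short list (PDGFRA, PDGFRB, DLK1, THY1 and COL6A3) had a median above 10 CPM. In a longer list of 14 preadipocyte and progenitor markers, which includes them, 13 passed the filter and 2 averaged under 1 CPM. Of 12 fat cell markers 8 passed the filter, and only PPARG, LPL and SLC2A4 had a median above 10 CPM. Adiponectin (ADIPOQ), CIDEC and leptin (LEP) had 3 or fewer counts, the floor used here, in all 12 libraries. Of 5 brown fat markers, UCP1 and CIDEA were at this floor in every library. In bulk RNA, fewer cells that express a gene and less RNA per cell cannot be told apart, and this holds for each value below.

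Upstream sequences are shown for CEBPA, EBF3 and CEBPB, because these 3 regulators were called lower in YT shZZZ3 and have a start site in the RefSeq table used here (GRCh38.p14). They were chosen after these values were seen. Each is the 250 bases before the RefSeq start, 5′ to 3′ on the strand of the gene, with the letters TATAAA or CCAAT in capitals where they occur on either strand. The CEBPA window is chr19:33302535-33302784 on the minus strand, the EBF3 window is chr10:129964275-129964524 on the minus strand, and the CEBPB window is chr20:50190580-50190829 on the plus strand. CEBPB has another window in the same RefSeq table, chr20:50190333-50190582, which is not shown and holds 0 of the letter patterns searched.
CEBPA: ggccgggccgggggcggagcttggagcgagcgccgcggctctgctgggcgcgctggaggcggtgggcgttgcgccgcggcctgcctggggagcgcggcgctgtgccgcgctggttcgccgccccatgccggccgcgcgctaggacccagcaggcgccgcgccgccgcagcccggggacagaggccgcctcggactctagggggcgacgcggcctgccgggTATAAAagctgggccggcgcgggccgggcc
EBF3: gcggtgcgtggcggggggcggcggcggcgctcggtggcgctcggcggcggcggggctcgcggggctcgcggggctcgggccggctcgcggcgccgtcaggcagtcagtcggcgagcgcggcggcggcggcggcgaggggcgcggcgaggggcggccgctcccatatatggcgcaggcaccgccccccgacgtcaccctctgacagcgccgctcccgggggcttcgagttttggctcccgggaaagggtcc
CEBPB: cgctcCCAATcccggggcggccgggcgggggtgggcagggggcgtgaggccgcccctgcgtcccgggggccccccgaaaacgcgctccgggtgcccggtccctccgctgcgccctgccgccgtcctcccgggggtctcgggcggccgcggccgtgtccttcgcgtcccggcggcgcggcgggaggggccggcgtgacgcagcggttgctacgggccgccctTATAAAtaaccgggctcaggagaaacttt

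The 3 windows are rich in CpG. CEBPA has 81.2% GC and 41 CpG pairs, EBF3 has 81.2% and 46, and CEBPB has 77.6% and 38. TATAAA begins at position -30 in CEBPA and at -29 in CEBPB, counted from the start, and occurs in 10.7% of the 35116 windows of this length. CCAAT stands at -245 in CEBPB and occurs in 32.01% of windows. The EBF3 window, which lies within the span of the GENCODE gene but in no annotated exon, holds neither. None of the 3 windows holds the TEAD core GGAATG (in 11.9% of all windows), the E-box CACGTG (6.34%), the AP-1 letters TGANTCA (6.57%) or the C/EBP letters TTGCNNAA (9.05%), all searched on both strands. The CEBPA window faces a divergent transcript, CEBPA-DT, whose start is 287 bases away and whose own window shares 214 bases with it.

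The first comparison asked how the regulators stood in the lines with the control hairpin. LPL and CEBPB were the highest of the 10 per kilobase of exon in both, LPL at 32.8 ± 7.24 CPM per kilobase (SD, n = 2) in TC shNT and 38.9 ± 0.371 in YT shNT, CEBPB at 16.6 ± 3.88 and 35.3 ± 2.22. PPARG came next in TC shNT (5.57 ± 0.144 CPM per kilobase), its libraries overlapping those of EBF1 (5.25 ± 2.15), and CEBPD did so in YT shNT (6.41 ± 0.949), overlapping PPARG (5.56 ± 0.508). CEBPA stood at 0.928 ± 0.533 and 1.42 ± 0.0341 CPM per kilobase, below PPARG in every library of both groups. EBF3, PRDM16 and FABP4 were the last 3 in both. The length used was that of all annotated exons of a gene merged, whichever transcript is expressed. It was 11981 bases for PPARG and 1839 for CEBPB, and the order between genes depends on it. In CPM alone PPARG stood at 66.7 and CEBPB at 30.5 in TC shNT.

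**Figure D2:**
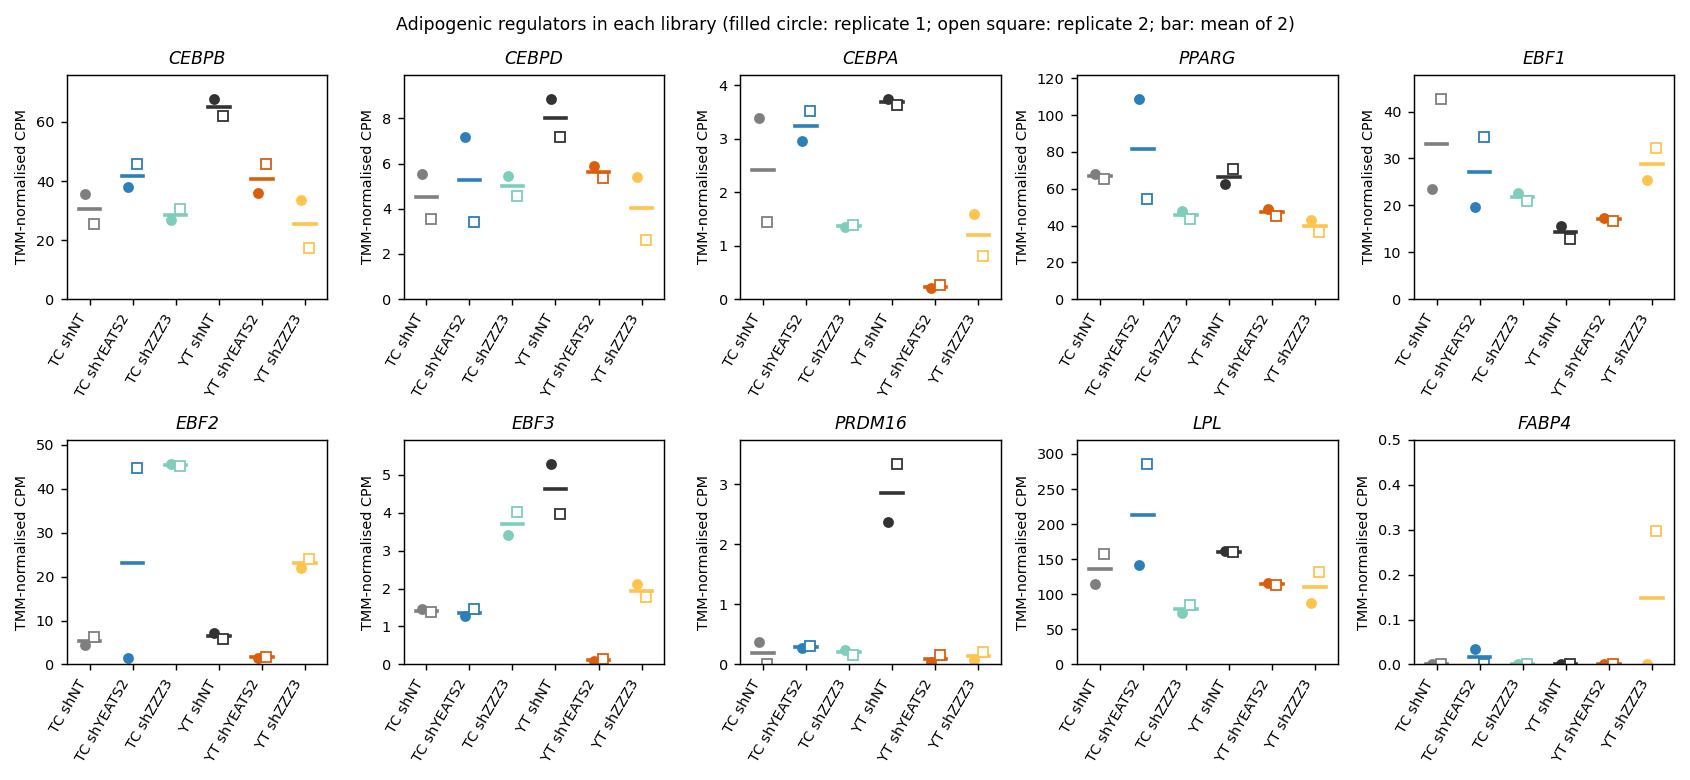
TMM-normalised CPM (vertical axes, linear from 0, a scale per gene) of the 10 regulators in each of the 6 groups (horizontal axes), with a filled circle for replicate 1, an open square for replicate 2 and a bar for their mean. CEBPA and EBF3 are lowest in YT shYEATS2, PRDM16 is high only in the YT shNT libraries, and the EBF2 libraries of TC shYEATS2 lie 30.2-fold apart.

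YT shNT differed from TC shNT in 3 of 8 regulators, beside 9.23% of all genes tested. CEBPB and EBF3 were higher in YT shNT, beside 5.58% of all genes, and EBF1 was lower, beside 3.65%. The count was 1 without TC shNT replicate 2, 0 without YT shNT replicate 1 and 1 without YT shNT replicate 2. The median log2 difference of the 8 was 0.43, and that of all genes -0.01.

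In TC shYEATS2 1 regulator had an unadjusted p under 0.05 in edgeR, a threshold whose share of all genes is not given. DESeq2 called 0 there, beside 0.646% of all genes. In the 4 knock-down comparisons the number of regulators called was 0 in TC shYEATS2, beside 0.0434% of all genes. It was 1 in TC shZZZ3, beside 1.53% of all genes, and that gene was higher, beside 0.934%, with 0 called when any of the 4 libraries was left out. In YT shYEATS2 2 were called, both lower, beside 11.1% of all genes called lower and 20.7% called in either direction. In YT shZZZ3 3 were called, all lower, beside 5.62% called lower and 10.02% in either direction. That count was 0 without either YT shNT library, 0 with replicate 2 of YT shZZZ3 left out and 2 with its replicate 1 left out. The median log2 fold change of the 8 was 0.34, -0.32, -0.59 and -0.86 in the same order, while that of all genes was -0.01, -0.01, -0.01 and 0.01. The 2 knock-downs of a line share their control libraries, so their values are given side by side and not as repeats of each other. Pairs of libraries that did not overlap were common among all genes tested. Their share, in either direction, was 20.2% in TC shYEATS2, 36.6% in TC shZZZ3, 74.2% in YT shYEATS2 and 52.7% in YT shZZZ3. Between the control groups it was 51.3%.

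**Figure D3:**
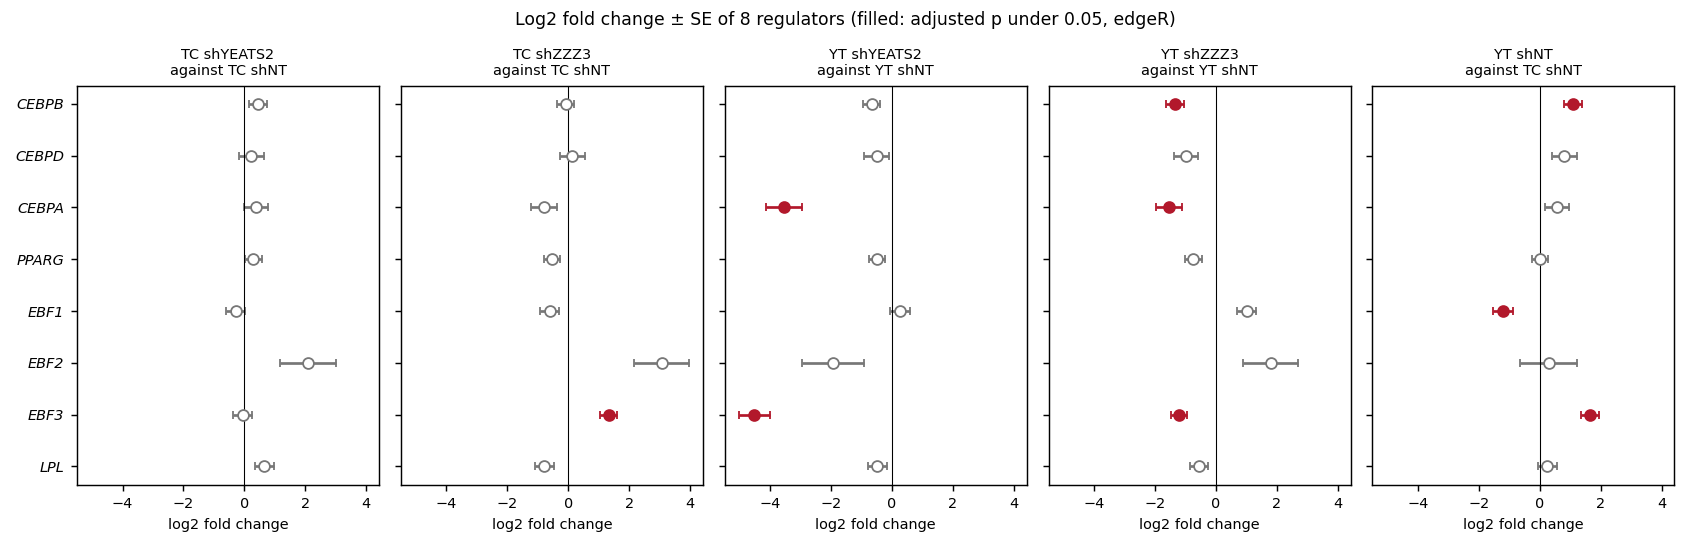
Log2 fold change with its standard error (horizontal axes, whiskers) of the 8 regulators in the 4 knock-down comparisons and between the lines with the control hairpin; filled points have an adjusted p under 0.05. The filled points of the YT knock-downs all lie left of 0, from -4.52 for EBF3 to -1.21 for the same gene.

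CEBPB, the early C/EBP factor (ENSG00000172216, chr20:50190830-50192668), was highest in YT shNT, at 67.9 and 62.1 CPM. In TC it stood at 35.5 and 25.4 CPM with shNT, 37.9 and 45.7 with shYEATS2, and 26.8 and 30.5 with shZZZ3. The YT knock-downs had 35.8 and 45.6 CPM with shYEATS2 and 33.6 and 17.4 with shZZZ3. Both YT shNT libraries lay above the other 10. Between the control groups CEBPB differed by 1.09 log2 units in favour of YT (SE 0.29, adjusted p = 0.0396), a call that was lost without TC shNT replicate 2 (0.84, adjusted p = 0.0848) or without either YT shNT library. It fell by 1.35 log2 units in YT shZZZ3 (SE 0.29, adjusted p = 0.0147), and without replicate 2 of that group the difference was -0.96 (adjusted p = 0.0517). Without either YT shNT library that call was lost too (adjusted p = 0.0936 and 0.0725). In YT shYEATS2 the difference of -0.67 (SE 0.29, adjusted p = 0.121) did not pass the test, and it did with the GC correction (-0.91, adjusted p = 0.00236), under which 30.7% of all genes were called. With that correction the CEBPB response also differed between the lines for both hairpins, by -1.40 in shYEATS2 (adjusted p = 0.00245) and by -1.55 in shZZZ3 (adjusted p = 0.00277), while 19.2% and 10.6% of all genes were called in these interactions. Without it the values of -1.13 and -1.26 did not pass the test (adjusted p = 0.116 and 0.125). The gene overlaps CEBPB-AS1 on the other strand, which had 6 to 34 counts per library, and the handling of strand is not given in the sources used here.

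CEBPD, its early partner (ENSG00000221869, chromosome 8), ran at a lower level, from 2.62 to 8.87 CPM over the 12 libraries. The YT shNT libraries were at 8.87 and 7.19 CPM, those of YT shYEATS2 at 5.87 and 5.37, and those of YT shZZZ3 at 5.42 and 2.62. In TC the pairs were 5.53 and 3.54 CPM with shNT, 7.15 and 3.42 with shYEATS2, and 5.44 and 4.54 with shZZZ3. YT shNT replicate 1 was the highest library, and the pairs of the other 5 groups overlapped one another in the order of their means. No CEBPD difference passed the test, the nearest being -0.98 in YT shZZZ3 (SE 0.40, adjusted p = 0.156). With the GC correction it was called lower there (-1.15, adjusted p = 0.0138, beside 20.1% of all genes) and higher in YT of the control groups (1.14, adjusted p = 0.0159, beside 18.2%).

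CEBPA, the late C/EBP factor that sustains PPARG in fat cells (ENSG00000245848, chr19:33299934-33302534), was close to its floor in YT shYEATS2. There it stood at 0.21 and 0.26 CPM, from 5 counts in each library, and in YT shNT at 3.75 and 3.62 CPM, from 71 and 63 counts. Counts over the pair were 16.0-fold higher in YT shNT (exact 95% interval 8.44 to 34.1, which covers counting error only). In the fit CEBPA fell by 3.56 log2 units (SE 0.59, adjusted p = 4.39e-04), and no other library of the 12 was as low as these 2. The YT shZZZ3 libraries were at 1.60 and 0.80 CPM, 1.54 log2 units lower than YT shNT (SE 0.41, adjusted p = 0.0324). That call was lost without either YT shNT library and without YT shZZZ3 replicate 2 (-1.17, adjusted p = 0.114).

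In TC the CEBPA values were 3.40 and 1.43 CPM with shNT, 2.96 and 3.52 with shYEATS2, and 1.34 and 1.39 with shZZZ3. The shNT pair was 2.37-fold apart and overlapped the shYEATS2 pair, while both shZZZ3 libraries were below both shNT libraries without passing the test (log2 difference -0.80, SE 0.42, adjusted p = 0.522). The response to shYEATS2 differed between the lines, by -3.95 log2 units (YT minus TC, SE 0.71, adjusted p = 0.00199). CEBPA was one of 2 regulators called in this interaction, both lower, beside 5.84% of all genes called lower and 9.37% in either direction. Against shZZZ3 the responses were not shown to differ (-0.74, SE 0.59, adjusted p = 0.588).

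CEBPA-DT, the divergent transcript on the other side of the CEBPA window, was read beside it. It stood at 2.53 and 1.78 CPM in YT shNT, 0.33 and 0.26 with shYEATS2, and 0.98 and 1.10 with shZZZ3. The fall in YT shYEATS2 was 2.54 log2 units (SE 0.40, adjusted p = 4.12e-04) and the difference in YT shZZZ3 was -0.997 (SE 0.32, adjusted p = 0.0568). Its TC pairs were 1.95 and 1.48 CPM with shNT, 2.01 and 1.71 with shYEATS2, and 0.89 and 0.80 with shZZZ3, and none of these differences passed the test.

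PPARG, the nuclear receptor at the centre of the fat cell programme (ENSG00000132170, chr3:12287368-12434356), passed the test in no comparison of the 6-group fit. TC shNT was at 67.9 and 65.5 CPM and YT shNT at 62.4 and 71.0, pairs that overlapped (log2 difference 0.00, SE 0.27, adjusted p = 0.998). The YT knock-downs were lower in both libraries, at 49.3 and 45.1 CPM with shYEATS2 and 43.1 and 36.8 with shZZZ3, and so were those of TC shZZZ3, at 48.1 and 43.6. Those log2 differences, -0.50, -0.74 and -0.54 (SE 0.27 each), did not pass the test (adjusted p = 0.209, 0.113 and 0.517). The TC shYEATS2 pair was 2-fold apart, at 109.0 and 54.4 CPM, the first being the highest of the 12. When YT shYEATS2 and YT shNT were fitted alone, PPARG was called lower (-0.50, SE 0.12, adjusted p = 0.00374), in a fit that called 47.3% of all genes.

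EBF1, a factor of progenitors and B cells (ENSG00000164330, chr5:158695920-159099916), differed between the control groups. The YT shNT libraries, at 15.7 and 12.8 CPM, were the lowest of the 12. The TC pairs were 23.5 and 42.8 CPM with shNT, 19.7 and 34.6 with shYEATS2, and 22.5 and 21.01 with shZZZ3. The YT knock-downs were at 17.4 and 16.7 CPM with shYEATS2 and at 25.3 and 32.3 with shZZZ3. The difference between the control groups was -1.21 log2 units (SE 0.32, adjusted p = 0.0375). It was not called without TC shNT replicate 2, the higher library of its pair (-0.75, adjusted p = 0.108), nor without YT shNT replicate 1 (adjusted p = 0.149) or replicate 2 (adjusted p = 0.236), and was -1.34 with the GC correction (adjusted p = 0.00125).

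Both YT shZZZ3 libraries of EBF1 were above both YT shNT libraries. The log2 difference of 1.01 (SE 0.32, adjusted p = 0.0710) did not pass the test, and it did under the GC correction (1.10, adjusted p = 0.00361) and by DESeq2 (1.03, adjusted p = 0.0218, beside 12.8% of all genes). The interaction of line and shZZZ3, at 1.61 log2 units (SE 0.45, adjusted p = 0.0727), did not pass the test and was called with the GC correction (1.64, adjusted p = 0.00478). EBF1 in YT shYEATS2 differed from YT shNT by 0.26 (SE 0.32, adjusted p = 0.597).

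EBF2, a marker of brown fat precursors (ENSG00000221818, chromosome 8), ranged from 1.46 to 45.6 CPM. It was at 4.39 and 6.31 CPM in TC shNT and at 7.18 and 5.87 in YT shNT. With shZZZ3 it was at 45.6 and 45.1 CPM in TC and at 21.98 and 24.1 in YT, all 4 libraries above every shNT library. With shYEATS2 it was at 1.46 and 1.81 CPM in YT, below every shNT library. The 2 libraries of TC shYEATS2 went opposite ways, replicate 1 to 1.48 CPM, a level like that of YT shYEATS2, and replicate 2 to 44.7, a level like that of TC shZZZ3.

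That pair was 30.2-fold apart, and only 3 of the 18415 genes tested, EBF2 among them, were as far apart in TC shYEATS2. Because all 6 groups share 1 estimate of the spread, its width entered every EBF2 test. In the fit of all groups no EBF2 difference passed: 3.07 in TC shZZZ3 (SE 0.90, adjusted p = 0.191), -1.95 in YT shYEATS2 (SE 1.02, adjusted p = 0.188) and 1.80 in YT shZZZ3 (SE 0.90, adjusted p = 0.256). Fitted alone, each of these 3 was called, at 3.04 (SE 0.29, adjusted p = 0.00633), -1.95 (SE 0.25, adjusted p = 1.93e-05) and 1.80 (SE 0.26, adjusted p = 0.00526). These fits called 0.853%, 47.3% and 7.57% of all genes. In TC shYEATS2 the direction depended on the library, with 3.03 without replicate 1 (adjusted p = 0.00373) and -1.81 without replicate 2 (adjusted p = 0.0527). The interaction of line and shYEATS2, at -4.03 (SE 1.36, adjusted p = 0.0923), did not pass the test and was -0.13 without TC shYEATS2 replicate 2. YT shNT and TC shNT were not shown to differ (0.29, SE 0.93, adjusted p = 0.883).

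EBF3 (ENSG00000108001, chr10:129835233-129973053), their close relative, was called in 4 of the 5 comparisons between groups. It stood at 5.28 and 3.97 CPM in YT shNT, from 100 and 69 counts, and at 0.08 and 0.15 CPM in YT shYEATS2, from 2 and 3 counts. Both YT shYEATS2 libraries were at the floor, and the counts of YT shNT were 40.4-fold higher (exact 95% interval 16.97 to 126, counting error only). In the fit it fell by 4.52 log2 units (SE 0.52, adjusted p = 1.64e-05). YT shZZZ3, at 2.11 and 1.78 CPM, was 1.21 log2 units lower than YT shNT (SE 0.27, adjusted p = 0.0153), a call lost when any of the 4 libraries was left out (adjusted p from 0.0518 to 0.161).

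In TC the direction was another one. EBF3 was at 1.45 and 1.39 CPM with shNT, 1.27 and 1.46 with shYEATS2, and 3.41 and 4.01 with shZZZ3. The first 2 pairs overlapped, and the shZZZ3 pair was above both, with a rise of 1.33 log2 units (SE 0.28, adjusted p = 0.0349). It was the 1 regulator called in TC shZZZ3, and leaving out any of the 4 libraries ended the call (adjusted p from 0.150 to 0.299). The YT shNT pair exceeded that of TC shNT by 1.65 log2 units (SE 0.28, adjusted p = 0.00366), lost without YT shNT replicate 1 (1.41, adjusted p = 0.0542). The responses differed between the lines for both hairpins, by -4.46 for shYEATS2 (SE 0.60, adjusted p = 1.83e-04) and by -2.54 for shZZZ3 (SE 0.40, adjusted p = 0.0045). EBF3 was the 1 regulator called in the shZZZ3 interaction, beside 2.86% of all genes called lower and 4.32% in either direction.

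PRDM16, the regulator that turns progenitors toward brown fat (ENSG00000142611, chr1:3069168-3438621), was detected above 10 counts in YT shNT alone. Its libraries there had 45 and 58 counts, or 2.38 and 3.34 CPM, and the other 10 had 0 to 10 counts. With so few counts it passed the filter through the group in which it was high, so its differences from that group are given as a description, with no test. YT shNT had 103 counts over its 2 libraries, TC shNT 10, YT shYEATS2 4 and YT shZZZ3 7. Scaled to library size, those of YT shNT were 13.4-fold, 30.8-fold and 20.7-fold the others, in the same order. In TC the 3 groups overlapped or lay within 10 counts of 0.

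LPL, the lipase that frees fatty acids from lipoproteins and a target of PPARG (ENSG00000175445, chromosome 8), was the highest of the 10 per kilobase in every group. Its TC libraries were at 114 and 157 CPM with shNT, 141 and 286 with shYEATS2, and 73.3 and 84.2 with shZZZ3. Those of YT were at 162 and 160 CPM with shNT, 117 and 113 with shYEATS2, and 87.3 and 132 with shZZZ3. The TC shZZZ3 pair was the lowest, and each knock-down pair except that of TC shYEATS2 lay below both libraries of its control. Pairs lay apart, in either direction, for 36.6% of all genes tested in TC shZZZ3, 74.2% in YT shYEATS2 and 52.7% in YT shZZZ3. No LPL difference passed the test. Among the knock-down comparisons the largest was -0.78 in TC shZZZ3 (SE 0.30, adjusted p = 0.352), then 0.65 in TC shYEATS2 (SE 0.30, adjusted p = 1.0), -0.55 in YT shZZZ3 (SE 0.30, adjusted p = 0.297) and -0.48 in YT shYEATS2 (SE 0.30, adjusted p = 0.277). Fitted alone, the last was called lower (-0.48, SE 0.10, adjusted p = 0.00111). The interaction of line and shYEATS2 was -1.14 (SE 0.43, adjusted p = 0.130) and was called without TC shYEATS2 replicate 1 (-1.53, adjusted p = 0.0334).

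FABP4, the fatty acid carrier by which mature fat cells are often recognised (ENSG00000170323, chromosome 8), was at 0 counts in 10 libraries. It had 1 count in TC shYEATS2 replicate 1 and 7 in YT shZZZ3 replicate 2, and the count of 0 in the other library of each pair allows up to 3. With 3 counts a library's floor is between 0.11 and 0.17 CPM, and no fold is given for it. PPARG had at least 816 counts and LPL at least 1575 in every library.

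The pathway around these regulators was read through 9 gene lists with 132 tested entries, where a gene in more than 1 list is counted in each. The lists were chosen with results known, so their shares are a description. In YT shNT against TC shNT 28 entries were called (21.2%, beside 9.23% of all genes), 23 higher and 5 lower (beside 5.58% and 3.65%). The libraries of TC shNT were the widest apart of all groups, and the part of that spread in these calls was not tested. Among 16 other activators of fat cell formation 3 were higher and 1 lower. PPARGC1A, the coactivator of PPARG in brown fat and muscle, rose from 0.38 and 0.62 CPM to 15.5 and 12.7 (log2 fold change 4.61, SE 0.40, adjusted p = 5.36e-05). KLF4 and KLF15, Kruppel-like factors of early and late differentiation, were higher by 2.40 and 2.02. DDIT3 (CHOP), a C/EBP relative that pairs with CEBPA and CEBPB and blocks their binding, was at 13.7 and 12.5 CPM in TC shNT and at 127 and 143 in YT shNT (3.36, SE 0.28, adjusted p = 1.09e-04). CEBPG, another partner of the C/EBP factors, was higher by 1.85 and TRIB3, an inhibitor of fat cell formation, by 2.29.

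Of 15 lipid synthesis and uptake genes 5 were higher in YT shNT and 0 lower, with a median log2 difference of 0.53 (all genes -0.01). Over the other lists the median ran from -0.12 (inhibitors) to 0.47 (secreted products). It was -0.05 for genes that handle LPL and -0.003 for droplet and storage genes. FABP3, a relative of FABP4 from heart and muscle, stood at 0.92 and 0.81 CPM in TC shNT and at 10.5 and 11.4 in YT shNT (3.53, SE 0.44, adjusted p = 7.03e-04). SLC2A4, the insulin-responsive glucose transporter, and ME1, malic enzyme, were higher by 1.04 and 1.07. Of 9 genes that handle LPL 4 were higher and 0 lower, among them ANGPTL4, an inhibitor of the lipase (1.80), and SEL1L, which helps it to leave the endoplasmic reticulum (1.04). The lipid droplet coats PLIN4 and PLIN5 were higher by 2.51 and 1.62, 2 higher and 0 lower of 19 droplet and storage genes. The inhibitors had 2 higher and 0 lower of 24, and the relatives and cofactors 2 higher and 0 lower of 18.

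The other 3 lists went both ways between the control groups. Of 8 secreted products NAMPT was higher by 1.87, from 45.9 and 98.1 CPM in TC shNT. RBP4 was lower (-1.84), at 0.16 and 0.23 CPM in YT shNT, where the floor is 0.16 and 0.17 CPM. Of 10 brown and beige fat genes 3 were higher, PPARGC1A and TNFRSF9 (2.58) among them, and ELOVL3, a fatty acid elongase, was lower (-1.98). Of 13 progenitor markers ICAM1 was higher by 2.22, and MGP and PDGFRA were lower (-2.21 and -1.62).

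In YT shYEATS2 51 of the 132 list entries were called (38.6%, beside 20.7% of all genes), 31 of them lower (beside 11.1% of all genes). Of the 16 other activators 3 were lower and 2 higher. ZNF423, a zinc finger protein that raises PPARG in preadipocytes, fell from 6.92 and 7.59 CPM to 0.21 and 0.05, the last at the floor (-5.02, SE 0.52, adjusted p = 1.26e-05). KLF15 fell by 2.80 log2 units, while KLF5 rose from 6.44 and 7.42 CPM to 43.4 and 36.4 (2.51, SE 0.25, adjusted p = 9.81e-05). Of 24 inhibitors 5 fell and 4 rose. The signal WNT10B fell by 2.30 and DDIT3 by 2.11, and TWIST1, which restrains brown fat genes, rose by 1.98. Of 18 relatives and cofactors 2 fell, PPARGC1B by 2.14 and CEBPG by 1.88, and CTBP1, a corepressor that partners with PRDM16, rose by 1.05.

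The lipid genes went both ways in YT shYEATS2. Among 19 droplet and storage genes 5 fell and 4 rose. PLIN4 fell from 13.8 CPM in each library to 1.17 and 0.88 (-3.64, SE 0.39, adjusted p = 1.15e-04). GPD1, which makes the glycerol backbone, fell by 2.19 to 0.21 CPM in each library, near the floor. PLIN3 rose by 1.48. Among 15 synthesis and uptake genes 5 fell and 3 rose. FABP3 fell from 10.5 and 11.4 CPM to 0.50 and 0.62 (-4.10, SE 0.49, adjusted p = 1.61e-04), ME1 by 1.70 and SLC2A4 by 1.32. Of 9 genes that handle LPL 2 fell, the proprotein convertase PCSK5 (-3.01) and the apolipoprotein APOC1 (-0.96).

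Secreted products and progenitor markers were split as well. RARRES2 (chemerin) fell from 514 and 460 CPM to 30.0 and 33.1 (-3.94, SE 0.48, adjusted p = 5.18e-04). The leptin receptor LEPR rose by 2.50. The retinol carrier RBP4 rose by 2.42, from 0.16 and 0.23 CPM in YT shNT, at or near the floor. In all 3 of 8 secreted products rose and 2 fell. Of 10 brown and beige fat genes 2 fell, TNFRSF9 by 2.45 and LHX8 by 1.07, and 0 rose. Of 13 preadipocyte and progenitor markers 5 fell and 3 rose, among them the matrix protein MGP, from 25.7 and 28.2 CPM to 159 and 158 (2.55, SE 0.26, adjusted p = 1.10e-04).

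YT shZZZ3 gave 34 calls over the 132 list entries (25.8%, beside 10.02% of all genes), 24 lower (beside 5.62% of all genes) and 10 higher. KLF15 and KLF4 fell by 1.76 and 1.52 and KLF5 rose by 1.67, in a list of 16 activators with 3 lower and 1 higher. DDIT3 fell from 127 and 143 CPM to 21.5 and 20.2 (-2.69, SE 0.28, adjusted p = 5.31e-04), TRIB3 by 2.07, and the inhibitor KLF2 rose by 1.78, with 4 lower and 3 higher of 24 inhibitors. CEBPG fell by 1.88 and PPARA, the fatty acid receptor of liver and brown fat, by 0.84, the 2 lower of 18 relatives and cofactors, with 0 higher. The lipid synthesis and uptake genes had 5 lower (ME1 -1.90, FABP3 -1.78, SLC2A4 -1.40 among them) and 2 higher of 15, and the droplet genes 2 lower (PLIN4 -2.80, PLIN5 -2.15) and 1 higher (PLIN3 1.17) of 19.

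Of the other lists in YT shZZZ3, APOE was the 1 lower of the 9 genes that handle LPL (-1.20, SE 0.31, adjusted p = 0.0356). RARRES2 and NAMPT, 2 secreted products of 8, fell by 2.10 and 1.53. TNFRSF9, LHX8 and PPARA were the 3 lower of 10 brown and beige fat genes. Of 13 progenitor markers 2 were lower and 3 higher, with MGP at 172 and 154 CPM (2.59, SE 0.26, adjusted p = 4.00e-04), THY1 higher by 1.48 and the adhesion protein ICAM1 lower by 1.71. Of the 22 genes named from the 9 lists in this group, 9 were 1.5-fold or more apart between its 2 libraries, whose part in these calls was not tested.

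**Figure D4:**
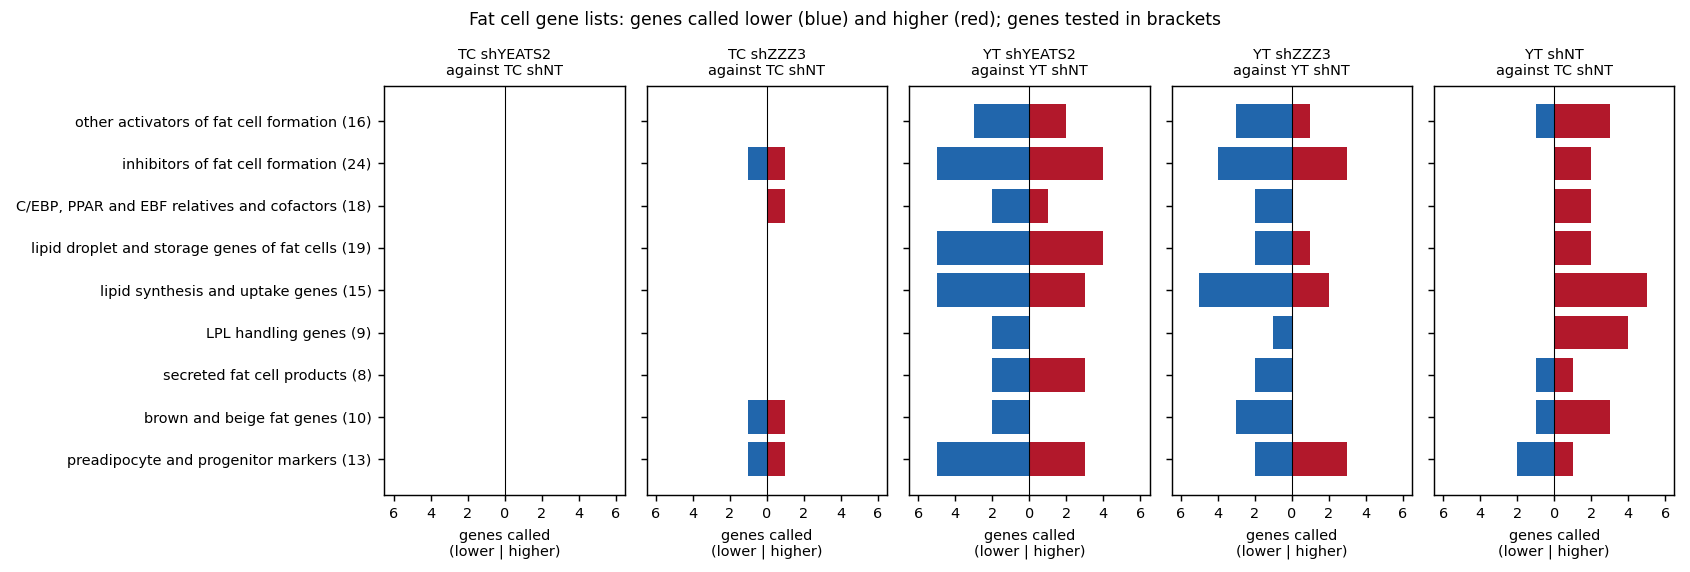
Genes called higher (red, to the right of 0) and lower (blue, to the left) in each of 9 fat cell gene lists (rows, with the number of genes tested in brackets) in the 4 knock-down comparisons and between the control groups. The TC shYEATS2 panel is empty, and the YT shNT panel has more red than blue, 23 against 5.

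Of the 132 list entries edgeR called 0 in TC shYEATS2, beside 0.0434% of all genes. DESeq2 called 4 there, beside 0.646% of all genes. At an unadjusted p under 0.05 in edgeR were 12 entries, a threshold whose share of all genes is not given. The edgeR fit called 7 in TC shZZZ3 (5.30%), beside 1.53% of all genes. In TC shZZZ3 the inhibitor GATA3 rose by 2.09 and ID2 fell from 44.6 and 46.0 CPM to 14.2 and 10.7 (-1.86, SE 0.21, adjusted p = 0.00182). ELOVL3 fell by 1.99 and TNFRSF9 rose by 1.61. MGP fell by 1.30 and the collagen chain COL6A3 rose by 1.25. MECOM, a relative of PRDM16, had 0 counts in both TC shNT libraries and 14 and 8 in TC shZZZ3, at least 3.86-fold higher against a floor of 3 counts per library. In YT shNT it was at least 13.5-fold higher than in TC shNT, from 44 and 20 counts.

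To place the regulators among all genes, the 3 tested genes whose log2 CPM followed each most closely over the 12 libraries were named. These are Pearson correlations over 12 points in 6 groups, which share libraries, depth and the GC skew above, and no p is given. PPARG was nearest to SMAD6 (r = 0.972), ANGPT4 (0.961) and SMAD7 (0.946), CEBPA to LRP3 (0.974), KCNH2 (0.957) and KLK1 (0.952), and CEBPB to NDUFA4L2 (0.940), AKNA (0.929) and PCK2 (0.921). CEBPD was nearest to NQO2 (0.951), TSPAN33 (0.949) and KLHL21 (0.941). EBF1 was nearest to the progenitor marker PDGFRA (0.971), RAB9B (0.965) and GPM6B (0.916). PDGFRA was also lower in YT of the control groups (log2 difference -1.62, SE 0.37, adjusted p = 0.0209). Its closeness to EBF1 comes from these same libraries, so the shared direction is no separate support.

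EBF3 was nearest to PCSK5 (0.969), GSPT1 (0.962) and ENSG00000121388 (0.961), and PCSK5 is also one of the genes that handle LPL described above. EBF2 was nearest to IGF2BP1 (0.906), KLRG1 (0.894) and OPRD1 (0.885), and LPL to ENSG00000273650 (0.896), CACNA2D1 (0.893) and CDV3 (0.886). PRDM16 was nearest to L3MBTL2-AS1 (0.937), LINC02610 (0.936) and HNF4A (0.927), values that turn mainly on its YT shNT libraries, the only ones where it was high. None of the 9 had another of the 9 among its nearest 3. With 18415 genes to rank, this does not show whether the regulators moved together.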

How the data were processed

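RNA was sequenced from SW872 cells expressing TC or YT with shNT, shYEATS2 or shZZZ3, in 12 libraries, and samples were grouped from the labels alone. The deposited tables hold raw whole-number counts per gene, to which the authors applied no filter or normalization. Per the study's methods, stranded libraries of poly(A) RNA were run through bcbio-nextgen, with alignment to hg38 (HISAT2 is named) and Ensembl annotation, and gene-level counts were made from Salmon abundances with tximport. Whether the deposited whole-number tables came from that step, and how strand and multiply mapped reads were handled, is not given in the sources used here. The combined and single-library tables differed in 0 cells. Positions came from GENCODE release 44, which held 99.1% of the gene IDs, and ZZZ3 was joined by its ID.

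Testing was limited to the 18415 genes averaging 5 counts or more. Counts were scaled by TMM and fitted with group as the factor over all 6 groups by the robust quasi-likelihood model of edgeR (version 4.0.16, R version 4.3.3, prior count of 2), with 6 residual degrees of freedom. The 7 two-sided contrasts are each hairpin against shNT within a line, YT shNT against TC shNT, and the difference between the lines for each hairpin. A gene was called at an adjusted p under 0.05 (Benjamini-Hochberg over all genes tested). Tested on simulated data for YT shYEATS2 against YT shNT over 18415 genes, the fit called 192 (96.0%) of 200 genes changed by 4-fold and 12 unchanged genes. The changed genes were drawn from genes with more counts than the filter requires. The simulated counts had the fitted spread, no GC skew and no other difference between groups. The share recovered therefore need not hold for the regulators in the real data. A library at 3 or fewer counts was taken as at the floor. Exact 95% intervals of count ratios cover counting error only. Total counts of 17451893 to 29294805 set the floor at 0.11 to 0.17 CPM.

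Alternatives were DESeq2 (version 1.42.0), its size factors, library totals, no filter, each contrast fitted alone, a GC correction (a lowess offset, span of 0.3, by library), a replicate block, the last 2 together, and each library left out. The 10 genes, the gene lists (from general knowledge) and the tests were chosen with earlier results of these data known. Named from each list are up to 3 called genes with pairs that did not overlap and the largest change per comparison, the most abundant gene of each list of another lineage, and the 3 genes nearest to each regulator. Start sites without a window in the RefSeq table, protein and chromatin data were not used here.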

Additional observations from a re-analysis of the deposited data

Results flagged for a closer look

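Responses that differed between the TC and YT lines, by the interaction term of the fit over all 6 groups, are collected here. For shYEATS2, CEBPA differed by -3.95 log2 units (YT minus TC) and EBF3 by -4.46. Each was lower in YT shYEATS2 than in YT shNT, while in TC the log2 differences were 0.39 and -0.06 and did not pass the test. For shZZZ3, EBF3 differed by -2.54, being lower in YT shZZZ3 and higher in TC shZZZ3, each by the test against its own control. Counts behind the low groups were 10 for CEBPA and 5 for EBF3, summed over the 2 libraries of YT shYEATS2.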

How the results depend on the processing

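Of 736 recomputed differences (56 pairs of regulator and contrast, PRDM16 left out), 642 kept their direction and their side of the threshold, 26 lost the call, 52 gained one and 16 reversed. CEBPA and EBF3 in YT shYEATS2 were called under every alternative run for that contrast. Regulators called, of 8, under each alternative that moved the count by over 1.5 times were as follows; the cause was not tested. In TC shYEATS2 (0 in the fit reported) 1 was called without a filter. In TC shZZZ3 (1) 3 were called without a filter and 2 with the GC correction and replicate block. In YT shYEATS2 (2) 4 were called with the GC correction and replicate block and 7 fitted alone, a fit that called 47.3% of all genes. In YT shZZZ3 (3) 6 were called without a filter, and 5 each with the replicate block, with the GC correction and with both. The GC correction called 20.1% of all genes there. In YT shNT against TC shNT (3) 5 were called with the GC correction, 5 with the GC correction and replicate block and 1 fitted alone. Here the GC correction called 18.2% of all genes. In the shYEATS2 interaction (2) 5 were called without a filter and 5 with the GC correction and replicate block. In the shZZZ3 interaction (1) 2 were called by DESeq2, 3 without a filter, 2 with the replicate block, 4 with the GC correction and 4 with both. The GC correction called 10.6% of all genes in the latter. For the other alternatives of this list the share of all genes is not given. These counts are therefore not a result about the regulators alone. Leaving out 1 library gave 0 to 1 in TC shYEATS2, 0 to 0 in TC shZZZ3, 2 to 2 in YT shYEATS2, 0 to 2 in YT shZZZ3, 0 to 3 in YT shNT against TC shNT, 2 to 4 in the shYEATS2 interaction and 1 to 2 in the shZZZ3 interaction.

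Reversals were all of differences that were not called. Leaving out 1 library in TC shYEATS2 gave -0.31 to 0.69 for PPARG, -0.0844 to 1.11 for CEBPA, -0.42 to 0.62 for CEBPD, -0.77 to 0.19 for EBF1, -1.81 to 3.03 for EBF2 and -0.17 to 0.0175 for EBF3. In TC shZZZ3 it gave -0.34 to 0.15 for CEBPB and -0.17 to 0.47 for CEBPD, for PPARG between the control groups -0.13 to 0.0638, and for LPL in the shZZZ3 interaction -0.0717 to 0.57. CEBPB in TC shZZZ3 was 0.0273 with the GC correction and 0.0265 with the GC correction and replicate block (-0.09 in the fit reported). PPARG between the control groups was 0.0076 with the replicate block (-0.0015).

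The labels do not say whether the replicate numbers pair the samples, and the fit reported assumed no pairing. Deviations of same-numbered libraries correlated from -0.438 to 0.898 over 15 pairs of groups, with 7 above 0.1 and 4 below -0.1. The highest was between TC shNT and YT shZZZ3, the groups with the GC skew. These values do not settle whether the numbers mark a pairing. With the number as a replicate block the count of calls stayed within 1.5 times except in YT shZZZ3 (5) and the shZZZ3 interaction (2). With 2 libraries per group and low counts for EBF3 and CEBPA, a difference that missed the threshold is not shown to be absent.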

Other observations

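Genes of other lineages were present at varied levels. Among 10 endothelial genes TIE1 was the most abundant, at 43.2 to 132 CPM, and the summed level of the list ran from 167 to 484 CPM. PECAM1 rose in YT shZZZ3 from 2.06 and 2.70 CPM to 22.2 and 19.5 (log2 fold change 3.08, SE 0.46, adjusted p = 0.00242) and CDH5 from 21.6 and 21.9 to 87.1 and 79.3 (1.93, SE 0.39, adjusted p = 0.0121). CLDN5 had 0 counts in both YT shNT libraries and was at least 6.19-fold higher in YT shZZZ3 and at least 2.72-fold higher in YT shYEATS2, against 3 counts per library. ERG fell in YT shYEATS2 by 3.33 log2 units, and TEK was lower by 1.47 in TC shZZZ3 and by 1.29 in YT shNT than in TC shNT.

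Of 11 bone and cartilage genes 6 were tested, and SOX9 was the most abundant (63.8 to 132 CPM). In YT shYEATS2 it rose by 0.99, while COL2A1 fell by 2.28 and ALPL by 2.61, to 0.12 and 0.10 CPM, both at the floor. In YT shZZZ3 RUNX2 fell by 1.29. The most abundant of 10 skeletal muscle genes was PAX3 (11.0 to 17.2 CPM). PAX7 had 33 and 19 counts in YT shNT and 0 in YT shYEATS2, at least 10.1-fold lower, and DES fell by 2.86 and 2.12 in the YT knock-downs. Of 10 epithelial and blood genes KRT18 was the most abundant (215 to 739 CPM), and KRT8 fell by 1.82 in YT shYEATS2. The part of these genes in the results on the fat cell regulators was not tested.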
